A study of Arabidopsis thaliana with 15 samples.

Results

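The comparison described here sets NAD-capped RNA captured after depletion of m7G-capped RNA against ordinary mRNA-seq in Arabidopsis thaliana. Its members are 6 of the 15 libraries, the 3 m7G-depleted SPAAC libraries and the 3 mock mRNA libraries, chosen by their labels and paired by replicate number. Both groups came from Col-0 seedlings aged 12 days, grown at 22 °C with 16 h of light and 8 h of dark, and started from poly(A)-selected RNA. For m7G-depleted SPAAC, 10 µg of RNA went into a depletion step with an antibody against the m7G cap, and about 3 µg of what was left was made up to 100 µg with E. coli tRNA, tagged and captured. For mock mRNA, the depletion step was run without the antibody, nothing was captured, and about 150 ng went into the library. The 2 groups therefore differ by depletion and by capture together, and no mRNA-seq library of m7G-depleted RNA and no capture without the tagging enzyme was analysed here. The 3 other groups of 3 libraries (m7G-depleted CuAAC, mock SPAAC and mock CuAAC) enter the fit, and the SPAAC and depleted ones are set beside these where a value bears on them.

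Most eukaryotic mRNAs begin with an m7G cap, which recruits the translation machinery and protects the 5′ end. Some RNAs instead begin with NAD+, which RNA polymerase can use in place of ATP as the first nucleotide, so that an NAD-capped RNA starts at a position where the template calls for A. In NAD-seq an enzyme swaps the nicotinamide for a clickable group, and biotin is joined to it for capture on streptavidin. SPAAC is the copper-free click reaction and CuAAC the copper-catalysed one, and copper ions can break RNA. Organelle transcripts and ribosomal RNA (rRNA) carry no m7G cap, so an antibody against that cap is not expected to remove them.

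The annotated first base can be read for the named genes, and these windows are shown because an NAD cap takes the place of an A at that base. Each line runs from 20 bases before the annotated start to 10 bases from the start on, taken from the RefSeq TAIR10.1 genome and written 5′ to 3′ on the gene's strand, with the annotated first base in capitals. The first 8 are the highest genes in m7G-depleted SPAAC relative to mock mRNA by the rule for named genes, and the last 3 are those of the 8 lowest that the reference lists as protein-coding.
AT2G07695, chr2:3345909-3345938, plus strand: agcagtagccaagaacatagAagcaagcca
AT2G07638, chr2:3377143-3377172, plus strand: gaagaaggggaagaaaataaAtgatcctag
KAC2, chr5:26169182-26169211, minus strand: atgatactcattgcttcggcCttcattttt
ML5, chr1:10294621-10294650, minus strand: agttaagaaaaaacctctttAgccacatca
PPC1, chr1:19888404-19888433, minus strand: aatgtataggaatccatcatGatctcactc
SEC3A, chr1:17456967-17456996, plus strand: tcttttgtccaggcttcagtTttttaatta
AT4G16660, chr4:9376679-9376708, plus strand: tccacgtcagtgtctcttctCaataattat
AT1G27900, chr1:9720620-9720649, minus strand: aagtacacttgtggcttgctTgatttttct
AT7SL-1, chr4:1317479-1317508, plus strand: ctgatcttgaaactacaacgAtgaacgtgt
AT3G56020, chr3:20791154-20791183, minus strand: gggccttaaaggcccaatatAaaaaggcta
AT5G56710, chr5:22944984-22945013, minus strand: actcaaagtgccgcatatatAtgcttagtt
Of the 8 high genes, 3 have A at the annotated start (AT2G07695, AT2G07638 and ML5), and the 3 low genes all have it. The annotated start is the outermost base of the gene model, and these counts hold no information on where a captured RNA began.

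Library totals ran from 13659501 to 15232302 counts for m7G-depleted SPAAC and from 3806556 to 9097552 for mock mRNA, so the mRNA-seq values of low genes carry more counting error. Levels are given in CPM, the count of a gene relative to a library total that TMM factors scale, and fold changes are log2 values of m7G-depleted SPAAC over mock mRNA ± SE. A gene is called higher or lower when its Benjamini-Hochberg adjusted p in edgeR's quasi-likelihood test is under 0.05 and its fold change is at least 2. The labels do not say whether the replicates came from separate plants, so the p-values cover only the spread between these samples and may reflect technical replicates. The counting did not separate strands, and 36.5% of the tested genes overlap another gene, so their values are uncertain. Among marker lists, green shoot markers summed to between 19200 and 20900 CPM in m7G-depleted SPAAC and between 28800 and 31600 CPM in mock mRNA. Of these 5 markers, 3 were called lower and none higher, with log2 fold changes from -2.52 to 0.87. In bulk libraries, fewer cells of a type, less RNA per cell and a difference in depletion or capture cannot be told apart. Root markers summed to between 1310 and 1430 CPM in m7G-depleted SPAAC and between 1250 and 1310 CPM in mock mRNA. Of the 7 root markers, 1 was called higher and 1 lower, with log2 fold changes from -3.08 to 1.72 and a median of 0.12. The lower one was CASP1, a root endodermis gene that overlaps another gene. It was at 2.44, 2.06 and 2.15 CPM in m7G-depleted SPAAC and at 23.4, 14.2 and 18.5 CPM in mock mRNA. The marker lists are short, and seed markers summed to at most 0.283 CPM and flower and pollen markers to at most 0.474 CPM in all 6 libraries.

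Captured, m7G-depleted RNA was made up almost wholly of nuclear coding transcripts, and rRNA and organelle RNA took far smaller shares than in mRNA-seq. Nuclear protein-coding genes held 94.9 ± 0.294% of counts in m7G-depleted SPAAC and 60.4 ± 4.25% in mock mRNA (SD, n = 3 each). Nuclear rRNA genes held 1.32 ± 0.138% in m7G-depleted SPAAC and 26.3 ± 5.08% in mock mRNA. Chloroplast-encoded genes held 0.704 ± 0.177% in m7G-depleted SPAAC and 7.69 ± 0.899% in mock mRNA, and mitochondria-encoded genes 0.456 ± 0.0234% in m7G-depleted SPAAC and 2.56 ± 0.0992% in mock mRNA. No library of either group overlapped the other group in any of these classes, and each had a two-sided exact permutation p of 0.1, the smallest that 3 against 3 libraries can give. The make-up was not particular to this group, as coding genes held 96.3% in mock SPAAC and 91.4% in m7G-depleted CuAAC. Nuclear rRNA held 0.321% in mock SPAAC and 3.35% in m7G-depleted CuAAC. Chloroplast-encoded genes held 0.172% and 1.75% in the same order, and mitochondria-encoded genes 0.114% and 0.714%.

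**Figure D1:**
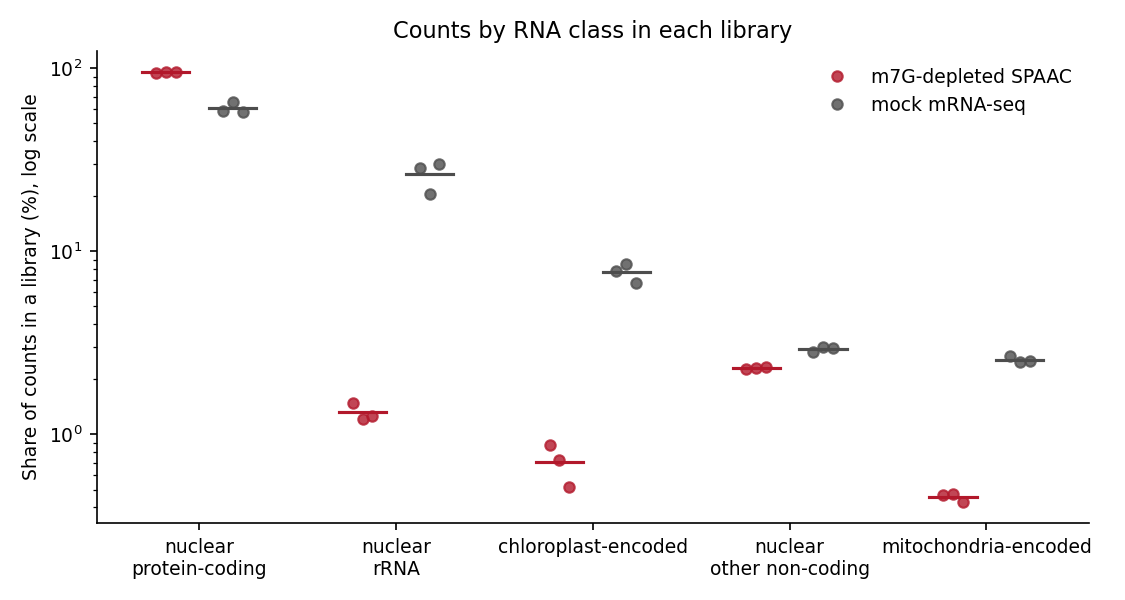
Share of all counts in each library, in percent on a log axis, by RNA class; each point is 1 library and each line a group mean (n = 3), with m7G-depleted SPAAC on the left of each pair. The widest gap between the groups is in nuclear rRNA, with means of 1.32% in m7G-depleted SPAAC and 26.3% in mock mRNA.

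The scaling of the libraries changed how the genes divide. With TMM factors, 2406 of 21456 tested genes were called higher in m7G-depleted SPAAC (11.2%) and 3058 were called lower (14.3%), 25.5% in all, and the median log2 fold change was 0.06, with quartiles of -0.60 and 0.64. With scaling by library totals the median was 0.83, and 8853 of the 21456 tested genes were called higher and 1004 lower. Counts of called list members given below are to be read beside these numbers under the same scaling. Fold changes are reported here with TMM factors, that is, relative to the bulk of nuclear transcripts. Libraries of the groups did not overlap for 7062 genes that were higher in m7G-depleted SPAAC (32.9%) and 5855 that were lower (27.3%).

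The genes with the highest and lowest fold changes differed in kind. Among genes that overlap no other gene and averaged at least 10 CPM, the 8 highest coded for proteins, 6 of them with exons of 2857 nt or more in sum. Of the 8 lowest, 3 are rRNA genes, 2 are small nucleolar RNA (snoRNA) genes, 1 is the 7SL RNA gene and 2 code for ribosomal proteins.

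KAC2 (AT5G65460, chr5:26161624-26169191), a kinesin-like protein needed for chloroplast movement along actin, was at 62.2, 76.0 and 69.3 CPM in m7G-depleted SPAAC and at 10.2, 18.4 and 10.4 CPM in mock mRNA. Its log2 fold change was 2.47 ± 0.12 (edgeR adjusted p = 2.31e-35). ML5 (AT1G29400, chr1:10289998-10294630), an RNA-binding protein of the MEI2-like family, was at 427, 441 and 510 CPM in m7G-depleted SPAAC and at 92.2, 93.0 and 103 CPM in mock mRNA. The change of ML5 was 2.25 ± 0.06, and for these genes the rule itself required that the groups do not overlap. PPC1 (AT1G53310, chr1:19883935-19888413), a phosphoenolpyruvate carboxylase, which fixes bicarbonate into oxaloacetate, had 371, 368 and 364 CPM in m7G-depleted SPAAC, against 81.6, 90.2 and 83.4 CPM in mock mRNA (log2 fold change 2.12 ± 0.06). SEC3A (AT1G47550, chr1:17456987-17465195), a subunit of the exocyst that tethers secretory vesicles, had 195, 194 and 195 CPM in m7G-depleted SPAAC, against 41.3, 42.0 and 55.2 CPM in mock mRNA (2.08 ± 0.07). AT4G16660, of the Hsp70 family, and AT1G27900, of the RNA helicase family, changed by 2.06 ± 0.08 and 2.01 ± 0.12. These 6 genes were each called higher in m7G-depleted SPAAC than in mock SPAAC, by 1.07 to 1.37. In mock SPAAC relative to mock mRNA their log2 fold changes were 0.80 to 1.10, and only KAC2 was called. These 2 differences add up to the change by which the genes were chosen.

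The other pair, AT2G07695 and AT2G07638, lies in a stretch of chromosome 2 that holds a nuclear copy of mitochondrial DNA. AT2G07695 (chr2:3345929-3347826), annotated as similar to cytochrome c oxidase subunit II, was at 24.6, 27.4 and 27.4 CPM in m7G-depleted SPAAC and at 2.80, 2.78 and 2.37 CPM in mock mRNA. Its log2 fold change of 3.29 ± 0.19 (adjusted p = 1.11e-28) was the highest by this rule. Of 80 tested genes between positions 3200000 and 3600000 of that chromosome, a window chosen after the values were seen, 41 were called higher and 9 lower, with a median of 1.08. These are 51.2% and 11.2%, where 11.2% of all genes were higher and 14.3% lower. Whether reads of mitochondrial RNA were counted for these genes was not tested. AT2G07774, which overlaps a transfer RNA gene in the same window, had the highest change among overlapping genes with a mean of at least 10 CPM, at 3.32 ± 0.13. The other overlapping gene named for a high value, AT4G30097 on chromosome 4, changed by 2.59 ± 0.16.

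At the low end stood AT7SL-1 (AT4G02970, chr4:1317499-1319179), listed as protein-coding in the reference but named for the 7SL RNA of the signal recognition particle, a transcript of RNA polymerase III. It was at 6.37, 2.32 and 1.36 CPM in m7G-depleted SPAAC and at 154, 180 and 173 CPM in mock mRNA, a log2 fold change of -5.64 ± 0.31 (adjusted p = 1.96e-07). The 18S rRNA gene AT3G41768 (chr3:14197677-14199484) was at 12600, 10700 and 10800 CPM in m7G-depleted SPAAC and at 424000, 270000 and 464000 CPM in mock mRNA, and changed by -5.07 ± 0.18. The second mRNA-seq library held less of it than the other two. The rRNA genes AT2G01010 and AT2G01020 changed by -4.46 ± 0.28 and -3.95 ± 0.16, and the snoRNA genes AT5G02565 and AT2G04965 by -5.20 ± 0.27 and -4.74 ± 0.23. Among these lowest genes, AT3G56020, of the ribosomal protein L41 family, was at 3.47, 2.52 and 3.17 CPM in m7G-depleted SPAAC and at 48.1, 67.3 and 43.4 CPM in mock mRNA, and changed by -4.07 ± 0.14. AT5G56710, of the L31e family, changed by -3.77 ± 0.10.

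**Figure D2:**
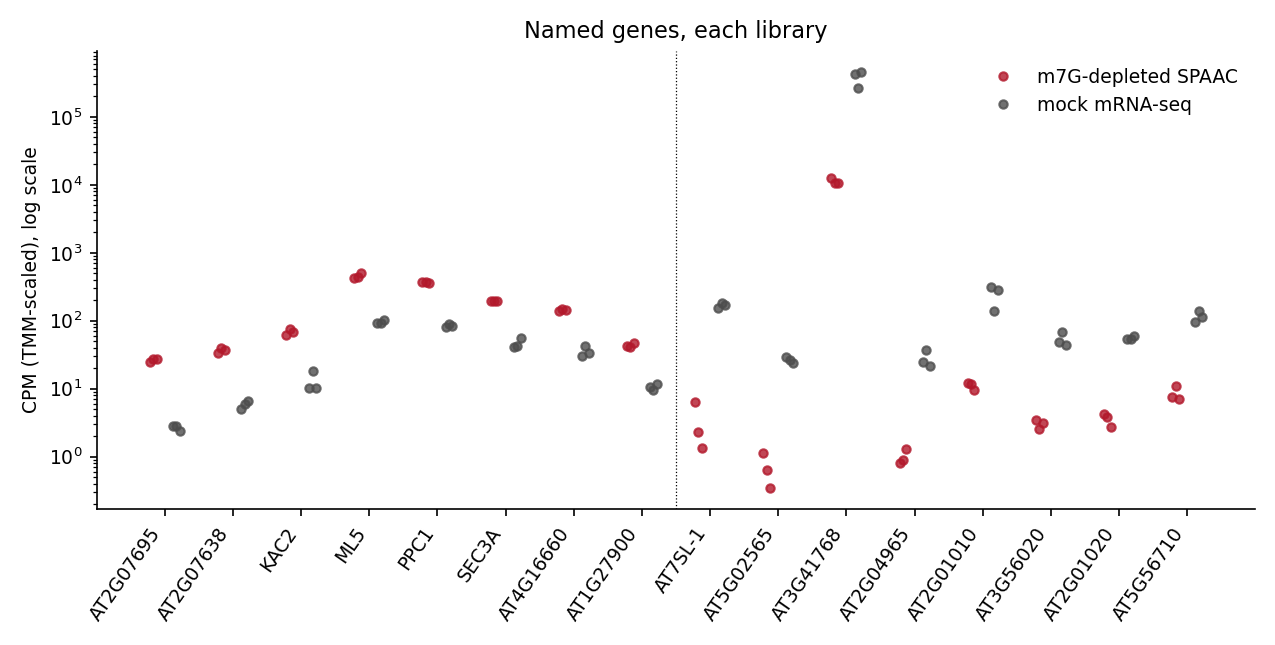
CPM, scaled by TMM and on a log axis, of the 8 highest (left of the dotted line) and 8 lowest genes that overlap no other gene, with 1 point per library and m7G-depleted SPAAC on the left of each pair (n = 3 per group). The rule that chose these genes required groups that do not overlap, so only the distances are a description: ML5 lies between 427 and 510 CPM in m7G-depleted SPAAC and between 92.2 and 103 CPM in mock mRNA.

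Relative to mock SPAAC, the capture without m7G depletion, the lowest genes did not all go one way. AT7SL-1 was higher in m7G-depleted SPAAC than in mock SPAAC by 1.69, and the rRNA genes AT3G41768, AT2G01010 and AT2G01020 by 2.00, 2.36 and 2.21. The snoRNA gene AT5G02565 was higher by 1.72, at 1.14, 0.645 and 0.340 CPM in m7G-depleted SPAAC, while the snoRNA gene AT2G04965 had 0.15 and was not called. AT3G56020 and AT5G56710 were lower in m7G-depleted SPAAC than in mock SPAAC, by a log2 fold change of -2.06 and -1.34. In mock SPAAC relative to mock mRNA these 3 rRNA genes had -7.07, -6.82 and -6.16, and the 2 ribosomal protein genes had -2.01 and -2.43.

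Chloroplast-encoded genes were likewise lower than in mRNA-seq and higher than in mock SPAAC. Of 115 tested chloroplast-encoded genes, 113 were called lower in m7G-depleted SPAAC than in mock mRNA and none higher, with a median log2 fold change of -3.54 against 0.06 over all genes. The 2 that were not called, ATCG01030 and ATCG09900, averaged under 5 CPM. ATCG00020, chosen because it took the most counts of any chloroplast-encoded gene in mRNA-seq, was at 1400, 1520 and 1040 CPM in m7G-depleted SPAAC, at 294, 345 and 260 CPM in mock SPAAC and at 31700, 28800 and 26800 CPM in mock mRNA. The captured libraries after depletion thus lay between the other groups, with no overlap. Its log2 fold change was -4.48 ± 0.08 against mock mRNA (adjusted p = 3.57e-19) and 2.13 ± 0.08 against mock SPAAC (adjusted p = 1.04e-14). Over the chloroplast-encoded genes, 104 of 115 were called higher in m7G-depleted SPAAC than in mock SPAAC, where 1618 of 21456 genes were called higher over the whole table (7.54%), and the median was 2.14. ATCG01170, the class's lowest, was at 0, 0.129 and 0 CPM in m7G-depleted SPAAC and at 2.96, 2.78 and 4.26 CPM in mock mRNA.

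Mitochondria-encoded genes went both ways. Of 78 tested, 35 were called higher and 17 lower in m7G-depleted SPAAC than in mock mRNA (44.9% and 21.8%), with a median of 0.99. The shares over all genes were 11.2% and 14.3%. The 3 mitochondria-encoded genes that took the most counts in mRNA-seq, chosen after their values were seen, were lower. ATMG01390 was at 792, 701 and 647 CPM in m7G-depleted SPAAC and at 17200, 14200 and 16900 CPM in mock mRNA (log2 fold change -4.50 ± 0.12, adjusted p = 5.67e-10). ATMG00020 and ATMG00030 changed by -4.21 ± 0.13 and -4.01 ± 0.11. ATMG01130, named after its values were seen, was at 191, 266 and 219 CPM in m7G-depleted SPAAC, against 32.3, 33.3 and 35.1 CPM in mock mRNA, and rose by 2.7 ± 0.08. ATMG09750, named by the rule for RNA classes, was listed at 1.48, 1.16 and 1.36 CPM in m7G-depleted SPAAC and at 0 in all 3 mock mRNA libraries. It passed the filter through captured libraries alone, and a gene at 0 in mRNA-seq cannot be called lower. The counts over all 78 therefore include calls whose direction the filter fixed. With a minimum mean of 5 CPM over the 6 libraries, 14 were higher and 12 lower. Among the 28 genes with a mean of at least 10 CPM, 9 were higher and 8 lower, and the median was 0.09. Relative to mock SPAAC they had a common direction, with 77 of 78 called higher in m7G-depleted SPAAC, none lower and a median of 2.08. Of all genes tested, 7.54% were called higher and 10.3% lower in that comparison. The organelle identifiers are given without gene names because the reference used pairs none with them.

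**Figure D3:**
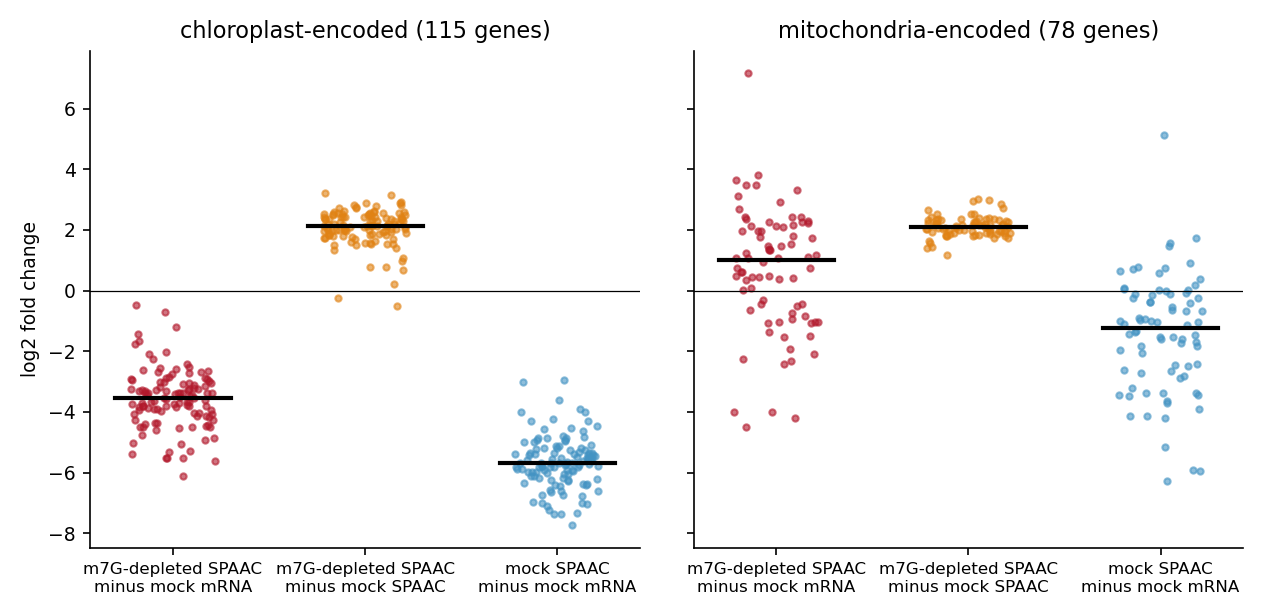
log2 fold changes of each tested chloroplast-encoded (left) and mitochondria-encoded (right) gene in 3 comparisons, with 1 point per gene, horizontal scatter added for visibility and black lines at the medians. In the middle column, m7G-depleted SPAAC minus mock SPAAC, chloroplast-encoded genes run from -0.52 to 3.21 (median 2.14). Mitochondria-encoded genes run from 1.16 to 3.01 there (median 2.08). The left columns have medians of -3.54 and 0.99. The comparisons share libraries, so the columns are not independent.

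Among small non-coding RNAs, 28 of 95 tested snoRNA genes were called lower and 9 higher (29.5% and 9.47%). Over all genes 14.3% were lower and 11.2% higher. The median of the snoRNA genes was -0.28. With library totals the median was 0.50, 17 were lower and 30 were higher, and with the length and GC offsets the median was -0.72, 34 were lower and 1 was higher. Of the 9 with a mean of at least 5 CPM, 8 were lower and none was higher. The lowest, AT1G06457, overlaps AT1G31860 and was at 0.0568, 0.129 and 0 CPM in m7G-depleted SPAAC and at 23.4, 34.0 and 21.8 CPM in mock mRNA. Of 14 small nuclear RNA genes of the spliceosome, 5 were higher and 2 lower (35.7% and 14.3%). U2.5, named by the rule, overlaps no other gene and was at 0.0568, 0.452 and 0.113 CPM in m7G-depleted SPAAC and at 1.48, 1.73 and 1.42 CPM in mock mRNA. Of 5 transfer RNA genes, 2 were higher and 1 was lower, and the highest, AT2G07754, is the one that overlaps AT2G07774. Of 1196 other non-coding genes, 150 were higher and 206 lower (12.5% and 17.2%), close to the shares over all genes. AT4G06805, which overlaps AT4G06810, was at 0.114, 0.129 and 0 CPM in m7G-depleted SPAAC and at 14.2, 12.1 and 15.9 CPM in mock mRNA. The pseudogene AT2G07737, in the same stretch of chromosome 2, was at 0.625, 0.645 and 0.679 CPM in m7G-depleted SPAAC and at 0 in every mock mRNA library. It too passed the filter through captured libraries alone.

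The largest drop among listed genes was in a pair of overlapping genes. AT2G09250, a 299 nt non-coding gene, lies inside the cytokinin response regulator ARR8 (AT2G41310, response regulator 3 in the reference) on the opposite strand. AT2G09250 was at 5.85, 3.68 and 3.23 CPM in m7G-depleted SPAAC and at 482, 482 and 381 CPM in mock mRNA, a change of -6.71 ± 0.09. ARR8 was at 9.44, 8.32 and 6.51 CPM in m7G-depleted SPAAC and at 487, 487 and 385 CPM in mock mRNA, a change of -5.80 ± 0.08. The 2 genes have almost equal mRNA-seq values, and without strand their reads cannot be told apart. Of the 7 other type-A response regulators tested, which dampen cytokinin signalling, none was called in either direction, and with library totals 2 were higher.

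Over nuclear coding genes the fold change followed the length of the transcript. Bins run from just over their lower bound to their upper bound. Genes of 500 to 1000 nt of summed exons had a median log2 fold change of -1.04 in m7G-depleted SPAAC against mock mRNA, and 1156 of 2345 were called lower and 41 higher. For 1000 to 2000 nt the median was -0.15, and for 2000 to 3000 nt it was 0.42. Genes of 3000 to 5000 nt had a median of 0.81, with 744 of 2148 called higher and 12 lower. The median reached 1.00 for 5000 to 7000 nt (119 of 241 higher) and was 0.67 for the 65 genes over 7000 nt (17 higher, none lower). The 315 genes of up to 500 nt broke the order, with a median of -0.41. Across 19712 genes, which are not independent replicates, the Spearman correlation of fold change with exon length was 0.60.

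The same bins are set side by side for the other comparisons. Between m7G-depleted SPAAC and mock SPAAC the medians were -0.85 at 500 to 1000 nt, 0.81 at 3000 to 5000 nt and 1.44 over 7000 nt, and the correlation across genes was 0.66. Between mock SPAAC and mock mRNA they were -0.15, 0.05 and -0.71, with a correlation of 0.08. For m7G-depleted CuAAC against mock mRNA they were -0.69, 0.07 and -0.50, with a correlation of 0.23. For m7G-depleted SPAAC against m7G-depleted CuAAC, both depleted, they were -0.43, 0.76 and 1.28, with a correlation of 0.63. These comparisons share libraries, so they are set side by side as values and not as independent evidence. RNA length itself was not measured, and the part of RNA integrity in the trend was not tested.

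**Figure D4:**
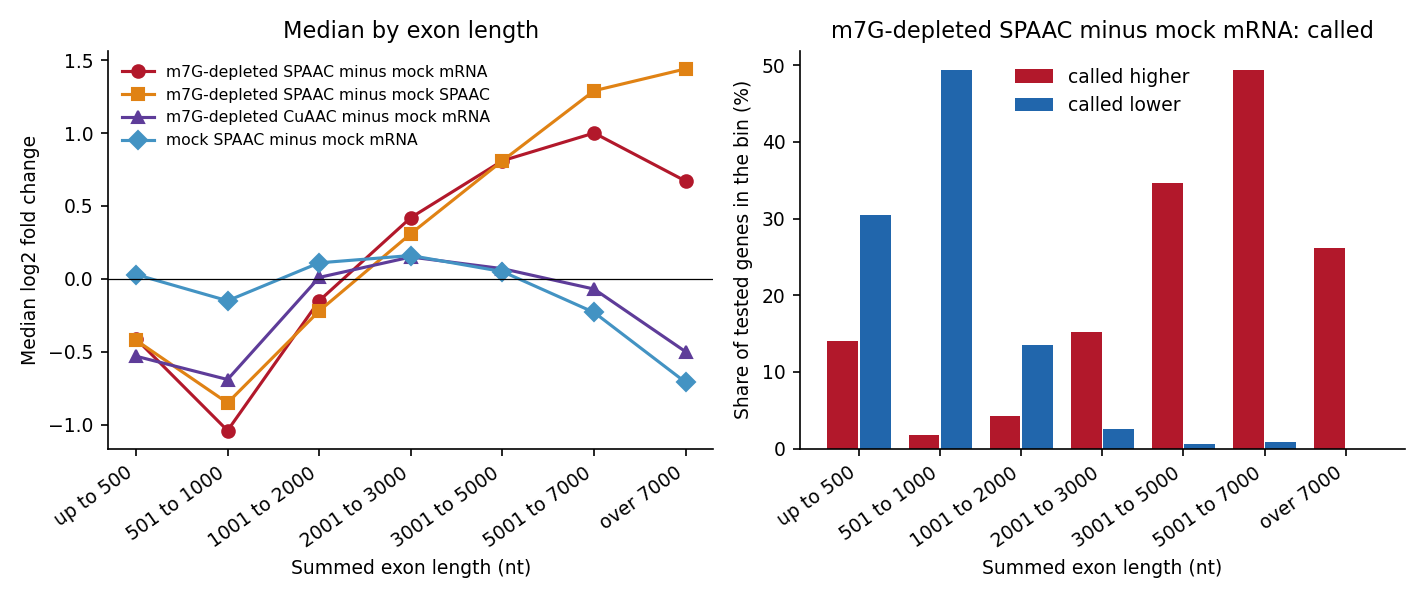
Left, median log2 fold change of nuclear coding genes by summed exon length in nt, for 4 comparisons that share libraries; right, percent of genes in each bin called higher or lower in m7G-depleted SPAAC than in mock mRNA. The share called lower is 49.3% at 500 to 1000 nt, and the share called higher is 49.4% at 5000 to 7000 nt.

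Coding genes called higher had a median of 2717 nt of exons and 8 exons, those called lower 1030 nt and 2 exons, and all tested 1776 nt and 4 exons. The number of exons also went with the fold change inside one length bin: among genes of 1000 to 2000 nt, those with 1 exon had a median of -0.50 and those with more than 10 exons 0.24. GC content went with it less, with medians from -0.22 in the quintile of lowest GC to 0.21 in the fourth quintile. When offsets removed the trends of counts with length and GC, as that fit is built to do, 1533 genes were called higher and 1807 lower.

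The base at the annotated start differed little between genes called higher, genes called lower and all genes. A was the annotated first base of 36.1% of coding genes called higher, 36.4% of those called lower and 35.6% of all 19711 with a start window. A pyrimidine followed by A at the start, the common initiator pair, was found at 19% of genes called higher, 21.2% of those called lower and 19.8% of all. The TATA motif TATAAA, searched on the gene's strand between 50 and 10 bases before the start, was present in 8.31% of genes called higher, 10.8% of genes called lower and 8.84% of all tested. With overlapping genes left out, A stood at the start of 36.0%, 34.8% and 34.0% in the same order. The match is a property of the gene models and says nothing of which cap an RNA carried.

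Listed genes for cytosolic ribosomal proteins were lower or not called. They were listed by the wording of their product names in the reference, so the lists are partial. AT3G56020, named above, is worded otherwise and is not among them. Of 40 tested genes listed for the 60S subunit of the cytosolic ribosome, 28 were called lower (70%, where 14.3% of all genes were). None was higher, and the median was -1.58 against 0.06 over all genes. Of 24 tested genes listed for the 40S subunit, 11 were called lower (45.8%) and none higher, with a median of -0.97. AT2G40510, of the S26e family, was at 9.21, 8.45 and 7.24 CPM in m7G-depleted SPAAC and at 69.9, 70.4 and 80.3 CPM in mock mRNA, and fell by 3.15 on the log2 scale. AT3G02560 (S7e) changed by -2.18 ± 0.09 and AT3G28900 (L34e) by -3.18 ± 0.14. With library totals 15 of the 60S and 4 of the 40S genes were lower, and 1 and 2 were higher. With the length and GC offsets 17 and 4 were lower, and 0 and 1 higher. Their median exon lengths were 888.5 nt for 60S and 1126 nt for 40S genes, and relative to all coding genes of the same length bin the medians were -0.66 and -0.44.

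Genes for elongation factors went both ways. The eEF1A genes, which deliver aminoacyl-tRNA to the ribosome, are near-identical copies whose reads the counting may share. AT1G07940 was at 608, 678 and 639 CPM in m7G-depleted SPAAC and at 196, 191 and 202 CPM in mock mRNA, and rose by 1.70 ± 0.05. AT1G07920 rose by 1.27 ± 0.05 and AT1G07930 by 1.14, while AT5G60390 was lower, with a log2 fold change of -1.11. With the chaperone HSC70-1 at 1.01, 4 of the 13 genes of this list were higher (30.8%, where 11.2% of all genes were) and 1 was lower. The list median was 0.11. With library totals 5 were higher and none lower (median 0.88), and with the length and GC offsets 3 were higher and 2 lower (median -0.34). LOS1, the elongation factor eEF2, had -0.57 and was not called.

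Nuclear genes for the photosynthetic apparatus were lower or did not pass the test. Photosystem I had 9 of 13 genes called lower (69.2%, where 14.3% of all genes were) and none higher, with a median of -1.14. PSAE-2, a stromal subunit, was at 142, 165 and 154 CPM in m7G-depleted SPAAC and at 739, 725 and 826 CPM in mock mRNA (-2.32 ± 0.06). PSAK, a membrane subunit, was at 424, 468 and 375 CPM in m7G-depleted SPAAC and at 1950, 2040 and 2020 CPM in mock mRNA, and changed by -2.25 ± 0.06. Photosystem II had 5 of 11 lower (45.5%), none higher, led by PSBTN (-2.15 ± 0.05) and PSBR (-2.14 ± 0.08), and PSBP-1 of the oxygen-evolving complex had -0.06. With library totals the lower calls were 4 in photosystem I and 3 in photosystem II, and the medians were -0.39 and -0.04. Under that scaling 1004 of all 21456 genes were lower, and their median was 0.83. Under the length and GC offsets the lower calls were 5 in photosystem I and 3 in photosystem II, with medians of -0.26 and -0.34.

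The light-harvesting proteins, which bind chlorophyll and pass energy to the photosystems, had 7 of 20 genes called lower and none higher. That is 35% lower, where 14.3% of all genes were, and the median was -0.80. CAB2 (AT1G29920) was at 1400, 1510 and 1260 CPM in m7G-depleted SPAAC and at 8610, 8900 and 9530 CPM in mock mRNA, a change of -2.7 ± 0.06. CAB3 changed by -2.52 ± 0.09 and LHCB2.1 by -1.18 ± 0.06. CAB1, their close paralog, was at 24800, 33700 and 28700 CPM in m7G-depleted SPAAC and at 28000, 28900 and 34800 CPM in mock mRNA, and the groups overlapped. It held 3.35% of all counts in m7G-depleted SPAAC, more than any other gene, and 2.1% in mock mRNA. How the counting divided reads between the CAB copies was not tested. LHCA4, a photosystem I antenna gene, had 0.73 ± 0.05, short of a 2-fold change. With library totals 4 antenna genes were lower and 3 higher, and with the length and GC offsets 4 were lower and 1 higher, with medians of -0.06 and -0.25. Of all 21456 genes, 1004 were lower and 8853 higher with library totals.

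Enzymes of the Calvin cycle, which fixes carbon dioxide, had 2 of 20 genes higher and 5 lower, with a median of 0.02. These are 10% and 25%, against 11.2% and 14.3% over the whole table, whose median was 0.06. Scaling by library totals gave 9 higher calls and 3 lower calls in this list, and a median of 0.77. Under that scaling the whole table of 21456 had 8853 higher calls, 1004 lower calls and a median of 0.83. The CP12 genes, small proteins that hold 2 of the enzymes in an inactive complex in the dark, were the lowest. CP12-2 was at 42.3, 29.5 and 31.3 CPM in m7G-depleted SPAAC and at 246, 163 and 187 CPM in mock mRNA (-2.53 ± 0.07), and CP12-1 changed by -2.45 ± 0.13. The Rubisco small subunit gene RBCS2B was at 4400, 4990 and 3550 CPM in m7G-depleted SPAAC and at 1700, 1570 and 1480 CPM in mock mRNA, and rose by 1.43 ± 0.05. Its paralog RBCS1A fell, with a log2 fold change of -1.17, and reads may be shared between the copies. The transketolase gene TKL1 rose by 1.06 ± 0.05.

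Most called metallothionein, cold and redox genes were lower. Of 5 metallothioneins, small cysteine-rich proteins that bind metals, 4 were called lower (80%, where 14.3% of all genes were), with a median of -2.23. Of the 5, 2 were lower with the length and GC offsets, where the median was -0.97, and among the 3 that overlap no other gene 2 were lower and the median was -1.07. MT3, which overlaps 2 other genes, was at 131, 135 and 117 CPM in m7G-depleted SPAAC and at 1060, 1110 and 1050 CPM in mock mRNA, and changed by -3.07 ± 0.06 (adjusted p = 1.18e-63). MT1A, which overlaps another gene, changed by -3.62 ± 0.12. Of 20 cold and dehydration genes 9 were lower (45%, where 14.3% of all genes were) and none higher, with a median of -0.92. COR15A, a chloroplast protein that protects membranes during freezing, was at 26.8, 11.0 and 20.1 CPM in m7G-depleted SPAAC and at 112, 48.9 and 81.7 CPM in mock mRNA. Replicate 2 was lowest in both groups, and the paired change was -2.06 ± 0.09. COR15B had -1.69 ± 0.08, and with library totals 2 genes of that list were lower and 1 higher. Under the length and GC offsets 5 were lower and 1 higher, with a median of -0.47. The redox list had 5 of 23 genes lower (21.7%, where 14.3% of all genes were). Among them were TRX3, a cytosolic thioredoxin (-1.72 ± 0.05), and FSD1, an iron superoxide dismutase (-1.55 ± 0.06). One was higher, GR (AT3G54660), a glutathione reductase, at 1.32 ± 0.05. The median of that list was -0.36 with TMM factors and 0.41 with library totals, where none was lower and 7 were higher.

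**Figure D5:**
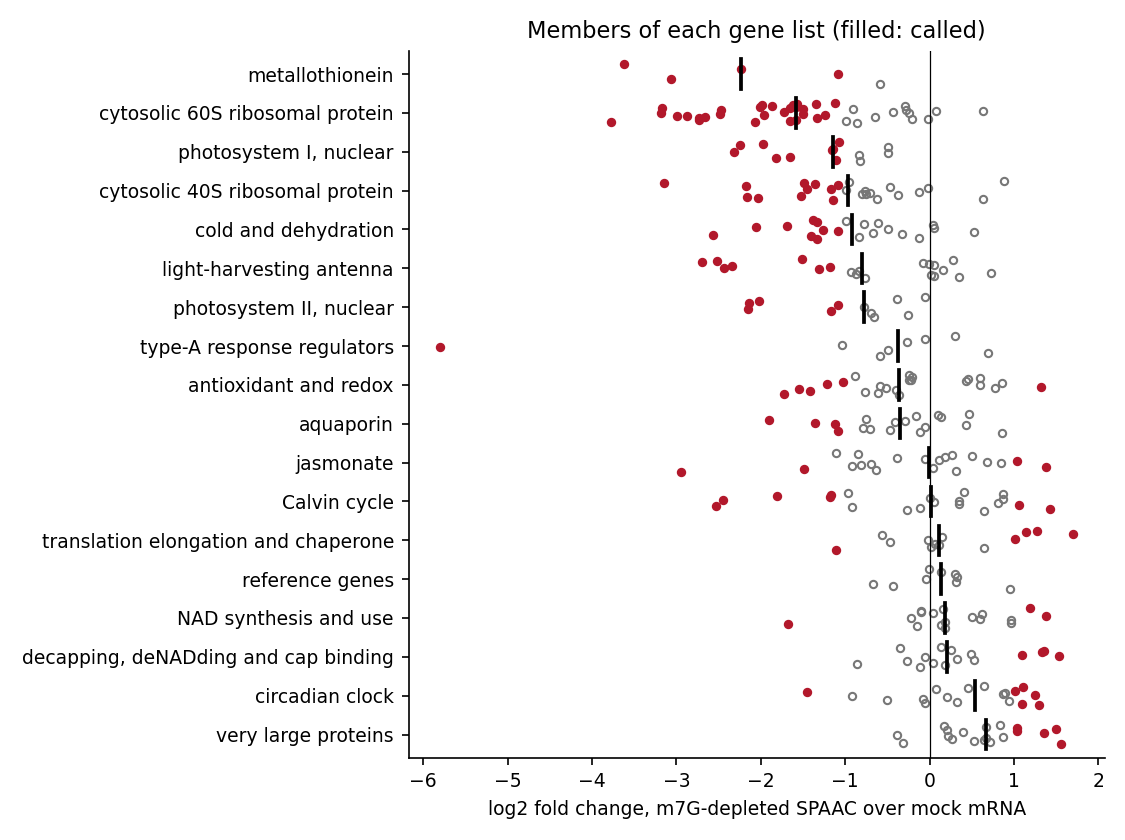
log2 fold change of m7G-depleted SPAAC over mock mRNA for each tested member of 18 gene lists, with filled points for called genes, open points for genes not called and a black bar at the list median. Lists run from metallothioneins at the top (median -2.23) to very large proteins at the bottom (median 0.67).

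Of 17 tested genes that make or use NAD, 2 were higher (11.8%, where 11.2% of all genes were), 1 was lower, and the median was 0.18. With library totals 7 were higher and none lower, where 8853 of all 21456 genes were higher and 1004 lower. NADK2, a chloroplast NAD kinase that makes NADP, was at 151, 147 and 152 CPM in m7G-depleted SPAAC and at 72.6, 66.6 and 56.4 CPM in mock mRNA, and rose by 1.19 ± 0.07. PARP1, a poly(ADP-ribose) polymerase, rose by 1.38 ± 0.22. NIC2, a nicotinamidase, had -1.68 ± 0.33 at under 5 CPM in every library of both groups. With the length and GC offsets none of the list was called.

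Of 16 genes for decapping, removal of the NAD cap, cap binding and 5′ decay, 4 were higher (25%, where 11.2% of all genes were) and none was lower. The list median was 0.21, and it was 0.15 relative to all coding genes of the same length bin. With library totals 8 were higher and the median was 0.97. VCS, the scaffold of the decapping complex, was at 197, 229 and 201 CPM in m7G-depleted SPAAC and at 71.9, 73.2 and 69.4 CPM in mock mRNA (1.53 ± 0.06). XRN4, the cytoplasmic 5′ to 3′ exoribonuclease, was at 77.9, 82.3 and 77.4 CPM in m7G-depleted SPAAC and at 32.3, 28.1 and 31.3 CPM in mock mRNA (1.35 ± 0.09). PARN, a poly(A) ribonuclease, and ABH1, the large subunit of the nuclear cap-binding complex, rose by 1.33 ± 0.23 and 1.09 ± 0.10. DCP1 had 0.14 ± 0.12 and NUDX19 had -0.86 ± 0.12, and neither was called. With the length and GC offsets none of these 16 was called, and VCS and XRN4 had 0.72 and 0.63.

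Clock genes had 5 of 18 called higher, where 11.2% of all genes were, and 1 lower, with a median of 0.54. With library totals 11 were higher and none lower, with a median of 1.29. GI, a large protein that acts in the evening, was at 319, 309 and 309 CPM in m7G-depleted SPAAC and at 140, 155 and 139 CPM in mock mRNA, and rose by 1.11 ± 0.06. LNK1, a transcriptional co-activator of the clock, rose by 1.30 ± 0.09, and TOC1 by 1.10 ± 0.06. ELF4, the smallest part of the evening complex, was at 23.8, 16.8 and 14.5 CPM in m7G-depleted SPAAC and at 65.8, 44.8 and 39.8 CPM in mock mRNA, and fell with a log2 fold change of -1.45 ± 0.09. Its gene has 660 nt of exons and that of GI 4303 nt. With the length and GC offsets LNK1 and ELF4 had 0.74 and -0.52 and were not called, and 1 gene of the list was higher and 1 lower.

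Jasmonate genes had 2 of 20 higher and 2 lower, where 11.2% of all genes were higher and 14.3% lower, and a median of -0.01. With library totals 7 were higher and 1 was lower, and the median was 0.77 against 0.83 over all genes. LOX2, the chloroplast lipoxygenase of jasmonate synthesis, was at 526, 337 and 430 CPM in m7G-depleted SPAAC and at 211, 120 and 167 CPM in mock mRNA (1.38 ± 0.05). VSP2, a vegetative storage protein induced by jasmonate, was at 13.8, 5.61 and 9.51 CPM in m7G-depleted SPAAC and at 33.6, 14.6 and 34.1 CPM in mock mRNA, and changed by -1.49 ± 0.12. For both genes replicate 2 was the lowest in both groups, while for VSP2 the order of replicates 1 and 3 differed between the groups. Without the replicate block VSP2 had -1.55 and was not called. Of 18 aquaporins, which let water through membranes, 4 were lower (22.2%, where 14.3% of all genes were) and none was higher. The median was -0.35. With library totals it was 0.40, and 3 were higher and 1 lower. PIP2E, of the plasma membrane, changed by -1.90 ± 0.06 and TIP2, of the vacuolar membrane, by -1.36 ± 0.05.

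Genes used as references in qPCR gave no call among 9, with a median of 0.14. ACT7 was at 589, 649 and 651 CPM in m7G-depleted SPAAC and at 325, 316 and 332 CPM in mock mRNA, with no overlap between groups and a log2 fold change of 0.95 ± 0.05. ACT2 was at 609, 658 and 635 CPM in m7G-depleted SPAAC and at 644, 668 and 645 CPM in mock mRNA (-0.04 ± 0.05). With library totals ACT7 had 1.71, and 4 of the 9 were higher.

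Genes for very large proteins had 5 of 19 called higher (26.3%, where 11.2% of all genes were) and none lower against mock mRNA. Their median was 0.67. With library totals 14 were higher and the median was 1.42. GLT1, an NADH-dependent glutamate synthase that assimilates ammonium, was at 2000, 2270 and 1940 CPM in m7G-depleted SPAAC and at 661, 724 and 710 CPM in mock mRNA, and rose by 1.56 ± 0.05. TOR, the kinase that couples nutrients to growth, was at 197, 204 and 193 CPM in m7G-depleted SPAAC and at 65.3, 75.6 and 71.1 CPM in mock mRNA, and rose by 1.5 ± 0.07. Relative to mock SPAAC all 19 were called higher in m7G-depleted SPAAC, with a median of 1.46. Relative to mock mRNA, mock SPAAC had 8 lower (5.39% of all tested genes were), with a median of -0.63, and m7G-depleted CuAAC had 9 lower (13.2% of all were), with a median of -0.94. AT2G17930, with 12118 nt of exons, had -0.39 in m7G-depleted SPAAC against mock mRNA, 1.62 against mock SPAAC, and -2.01 in mock SPAAC against mock mRNA. With the length and GC offsets GLT1 and TOR had 0.68 and 0.53, none of the 19 was higher and 2 were lower.

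The copper-free and the copper-catalysed reactions on depleted RNA differed most for long transcripts. Between m7G-depleted SPAAC and m7G-depleted CuAAC, 1654 of 21456 genes were called higher (7.71%) and 243 lower (1.13%). Genes of 3000 to 5000 nt had 530 of 2148 higher and 1 lower, and 18 of the 19 genes for very large proteins were higher, with a median of 1.34. The medians of photosystem I, photosystem II and antenna genes were -0.64, -0.62 and -0.61, and none of their members was called. For 18S rRNA (AT3G41768) the difference was -1.47, and for the chloroplast-encoded genes 1 of 115 was higher and 26 were lower, with a median of -0.63.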

How the data were processed

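The authors deposited raw counts, 1 whole-number count per gene and library with the gene's summed exon length, as the files show. Tools listed in the submitters' processing notes are featureCounts 2.0.0, STAR 2.7.3a and DESeq2, with no roles, and a genome build was not given in the sources used here. Among 37361 gene identifiers, 99.2% matched RefSeq TAIR10.1, and 99.5% of the matched genes had equal exon length in both, so names, coordinates and sequences were taken from it.

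All 15 libraries were fitted together in edgeR 4.0.16 (R 4.3.3; quasi-likelihood F test, robust, TMM factors, filterByExpr) with group and replicate number as terms, and the contrasts taken from that fit. The block was used because the comparison is paired by number. Deviations from group means correlated at 0.55, 0.51 and 0.246 for same-numbered libraries and at -0.502 to -0.074 for others (10920 genes). Replicates differed by more than sampling noise (chi-square per degree of freedom 4.17 to 12.9), and no library pair was identical. Of opposite-strand gene pairs with over 1000 counts each, 29 of 1877 had identical counts in every library.

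The comparison, the 18 gene lists and 4 marker lists and the rule for named genes were chosen with earlier results of these data known. Named genes are the 8 highest and 8 lowest called nuclear genes that overlap no other gene, average at least 10 CPM and have groups that do not overlap, then 2 each way among overlapping genes, up to 2 called members of each list and the top called member of each RNA class. Other genes given with values were added as further members of these lists. From the lists, 6 nuclear members were left out where the reference names them otherwise. Lists are described by counts and medians, with no set test. The code was tested on simulated counts. Alternatives covered scaling, filters, tool, block, threshold, length and GC, overlapping genes and each left-out replicate.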

Additional observations from a re-analysis of the deposited data

How the results depend on the processing

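The counts of genes called higher and lower in m7G-depleted SPAAC against mock mRNA (2406 and 3058) kept within 1.5 times of these values with DESeq2, DESeq2 size factors, TMM factors from nuclear coding genes, no filter and the 6 compared libraries only, and without the replicate block (2340 and 2959). Leaving out each replicate in turn gave 2313 to 2432 higher and 3002 to 3061 lower. They moved with library totals (8853 and 1004), a test against a fold of 2 (872 and 1780), the length and GC offsets (1533 and 1807), and overlapping genes left out (1591 and 1981, fewer genes tested), and a minimum mean of 5 CPM left 1508 higher. Listed genes together had 25 higher and 93 lower, and 84 and 41 with library totals, 11 and 58 with the length and GC offsets, and 13 higher against a fold of 2. Mitochondria-encoded genes had 14 higher at a minimum of 5 CPM, and 10 lower against a fold of 2 and 9 with library totals. The gap between the medians of genes of 3000 to 5000 nt and of 500 to 1000 nt was 1.85, and it was 0.20 with the length and GC offsets, which remove it by construction, 1.97 at 5 CPM, 1.57 with no filter and 1.95 without overlapping genes. The log2 ratios of read shares (m7G-depleted SPAAC over mock mRNA) kept their sign. Without nuclear rRNA they were -3.87 for chloroplast, -2.92 for mitochondria, -0.76 for other non-coding and 0.23 for coding genes, and without the 20 most abundant genes -3.84, -0.98, -0.28 and 0.13, where the main values were -3.45, -2.49, -0.34 and 0.65. Organelle rRNA could not be left out by name and was kept. With library totals 137 genes were lower than in m7G-depleted CuAAC, against 243. Over 60 named genes and all alternatives, no direction reversed; 19 of 990 values lost their call, 11 with the length and GC offsets, 7 with library totals and 1 without the replicate block, and ACT7 gained one. The causes of these shifts were not tested unless stated. Depth was lowest in mock mRNA replicate 2, at 3806556 counts.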

Other observations

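The stretch of chromosome 2 with a nuclear copy of mitochondrial DNA, between positions 3200000 and 3600000, is set here beside the mitochondria-encoded genes. Of its 80 tested genes, 76 were called higher in m7G-depleted SPAAC than in mock SPAAC (95%, where 7.54% of all genes were) and none lower. The median log2 fold change of the 80 was 2.05, where the mitochondria-encoded genes had a median of 2.08. In mock SPAAC relative to mock mRNA, 3 of the 80 were called higher and 37 lower, with a median of -1.06, where the mitochondria-encoded genes had -1.22. Whether reads were shared between the copies was not tested.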
